A study of Mus musculus with 2 samples.

Results

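The genes of oxidative phosphorylation were examined in single liver sinusoidal endothelial cells (LSECs) of control and Maf LSEC-KO mice. Members were chosen by gene symbol. They were all genes whose symbol marks a subunit of complexes I to V, encoded in the nucleus (Ndufa, Ndufb, Ndufc, Ndufs, Ndufv, Sdha to Sdhd, Uqcr, Cox4i, Cox5 to Cox8, Atp5) or in the mitochondrial genome (mt-Nd, mt-Co, mt-Atp, mt-Cytb). This rule took 107 of the 32285 genes in the data, of which 86 were nuclear subunit genes, 13 were mitochondrial genes and 8 were Ndufaf genes. The Ndufaf genes encode assembly factors of complex I and no subunits, so they were counted apart. Cyc1, a subunit of complex III, is not taken by the rule and is given with the electron carriers.

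Maf LSEC-KO mice carried Clec4g-iCre (tg/wt) and 2 floxed Maf alleles, so that Maf, which encodes the transcription factor c-Maf, is deleted in cells in which the Clec4g promoter has been active. Controls are labelled wild type, and the methods of the study describe them as littermates without Cre that carried floxed Maf alleles. Age and sex of the mice used here are not given by library. Hepatic endothelial cells were purified with beads against CD146, and cells of 3 mice were pooled for each condition and sequenced as 1 library by a droplet method that reads the 3′ end of mRNAs and tags each captured mRNA with a unique molecular identifier (UMI). With 1 library per condition there were no replicates and no test, and all intervals are exact 95% Poisson intervals that cover counting error only. Genotype and library cannot be told apart.

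The respiratory chain passes electrons from complex I and complex II through complex III to complex IV, where oxygen is reduced, and complex V, the ATP synthase, uses the proton gradient that results. Complexes I, III, IV and V are built from subunits of both genomes, while complex II is encoded by the nucleus alone. The mitochondrial genome is transcribed as long precursors that are cut into mRNAs. Quiescent endothelial cells are known to depend strongly on glycolysis and to hold comparatively few mitochondria.

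The deposited tables held 47681895 UMIs over 5664 barcodes for control and 89872764 UMIs over 7091 barcodes for Maf LSEC-KO. After filtering, the control library held 4268 LSECs with a median of 8417 UMIs, and the Maf LSEC-KO library held 3250 LSECs with a median of 13870 UMIs. The level of Maf was 3440 CPM in control and 125 CPM in Maf LSEC-KO LSECs, where CPM are UMIs scaled so that all genes except mitochondrial and ribosomal protein genes sum to 1000000. LSEC markers were present in both libraries and lower in Maf LSEC-KO, with a summed level of 22612 CPM in control and 7868 CPM in Maf LSEC-KO LSECs over the 13 markers measured, Stab2 among them at 1612 and 178 CPM. Among the control LSECs were 21 cells of a cluster (cluster 9) led by T and NK cell genes. Ribosomal protein genes made up 7.76% of UMIs in control LSECs and 18.6% in those of Maf LSEC-KO mice. Hepatocyte markers summed to 332 and 100 CPM and red blood cell markers to 1201 and 14.4 CPM, both higher in control. The libraries shared 10 cell barcodes. The part of depth, ribosomal protein share and foreign RNA in the results below was not tested.

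Nuclear subunit genes were higher in Maf LSEC-KO LSECs across all 5 complexes, whereas the mitochondrial genes were split in direction. The summed level of the nuclear subunit genes was 16427 CPM (95% interval 16384 to 16470) in control and 23342 CPM (95% interval 23294 to 23389) in Maf LSEC-KO LSECs, a ratio of 1.42. The summed level of the 13 mitochondrial genes was 50951 and 56341 CPM, a ratio of 1.11. Hence 3.1 mitochondrial UMIs were counted for each nuclear subunit UMI in control LSECs and 2.4 in those of Maf LSEC-KO mice. With the UMIs of all genes as the denominator, the log2 ratio of the mitochondrial sum changed from 0.15 to −0.04, so its direction rests on the scaling.

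Of the 86 nuclear subunit genes, 78 reached 50 CPM in either library. The median of their log2 ratios, here always Maf LSEC-KO over control, was 0.48, beside 0.10 over all 4514 genes that reached this level. More than 25% higher were 61 of the 78, compared with 34.9% of all genes. No nuclear subunit gene was lower by the same factor, compared with 20.6% of all genes. At 1.5-fold, 26 were higher and 0 were lower, against 19.0% and 11.3% of all genes. The log2 ratio was above 0 for 77 of the 78, with Sdha as the exception. Scaling by TMM, which moved the median of all genes to −0.02, left a median of 0.37 and 43 genes more than 25% higher. With the UMIs of all genes as the denominator the median was 0.30 and the count 37, and the median of all genes was −0.11. The shares of all genes given above hold for the main scaling only. The counts of 43 and 37 therefore have no such share beside them.

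**Figure D1:**
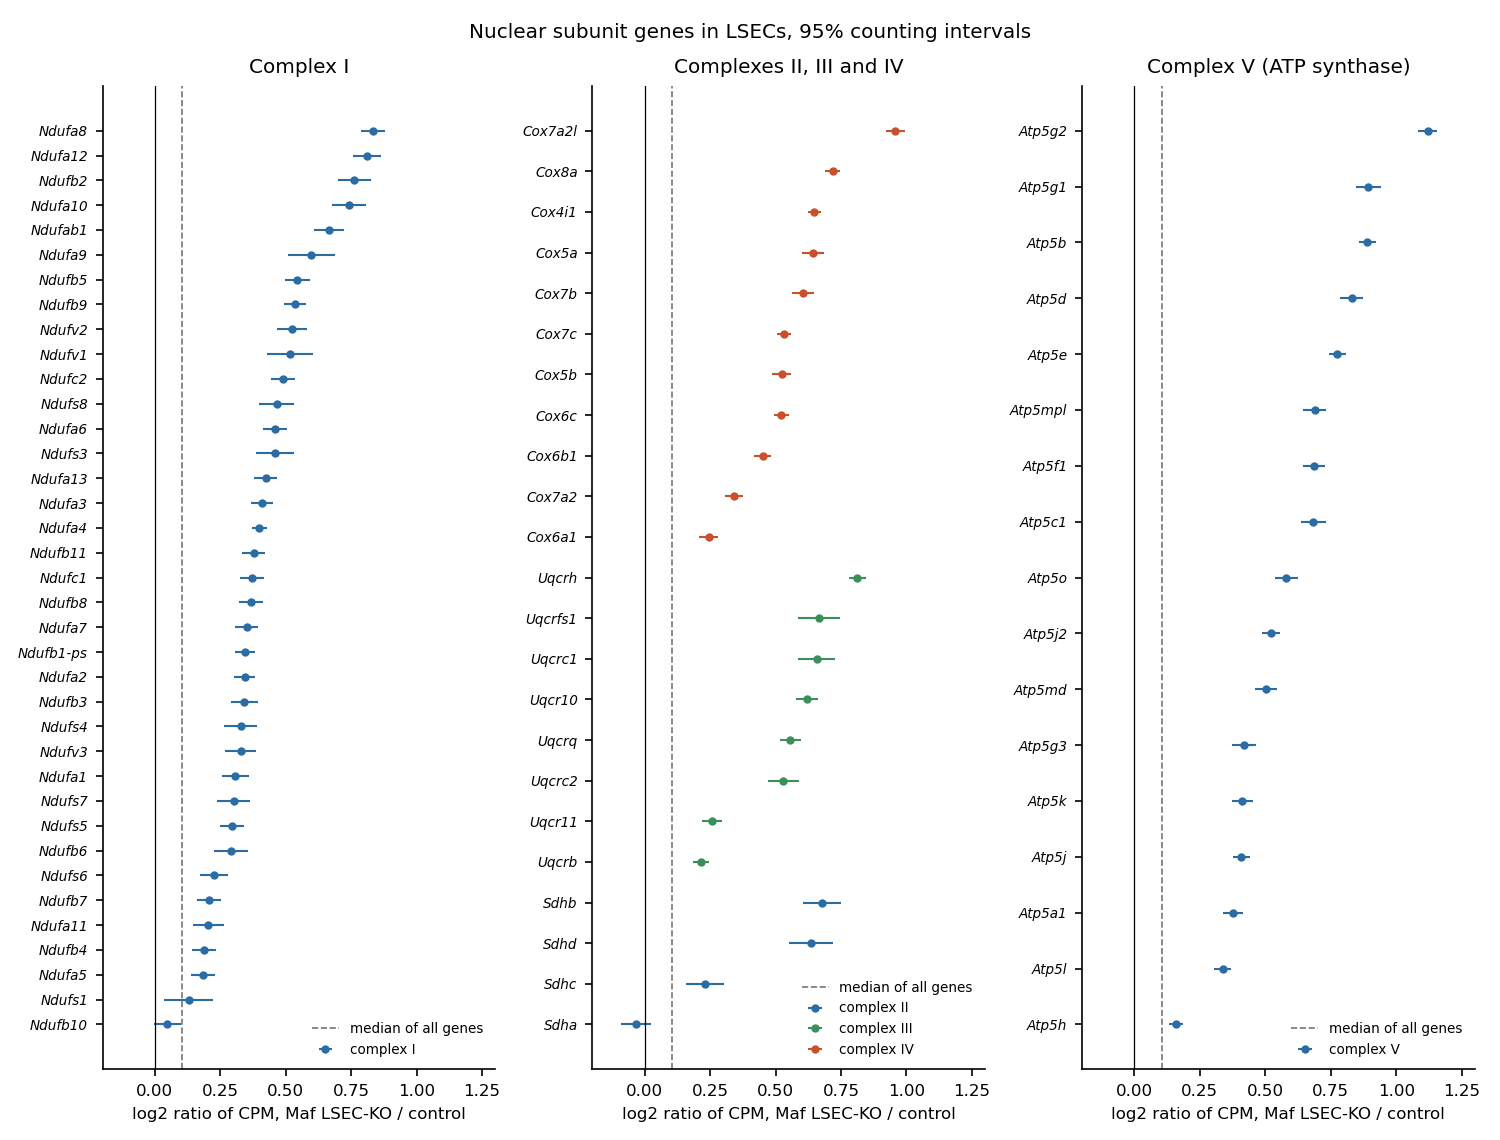
Log2 ratio of the level (CPM) in Maf LSEC-KO LSECs over that in control LSECs for 77 of the 78 nuclear subunit genes that reached 50 CPM in either library, by complex, with 95% counting intervals. The dashed line is the median of all genes at 0.10. Nearly all points lie to the right of it, from −0.03 for Sdha to 1.12 for Atp5g2.

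Complex V showed the largest ratio of summed levels, close to that of complex IV. The log2 ratios were 0.579 (95% interval 0.570 to 0.588) and 0.569 (95% interval 0.560 to 0.579), so the intervals overlapped. By the median log2 ratio of single genes, complex III was first (0.59, beside 0.58 in complex V). The 17 genes of complex V summed to 4634 CPM in control and 6924 CPM in Maf LSEC-KO LSECs, a ratio of 1.49. More than 25% higher were 16 of them, compared with 34.9% of all genes. Atp5b, the catalytic beta subunit, had a level of 319 CPM in control and 591 CPM in Maf LSEC-KO LSECs. Atp5a1, the alpha subunit that forms the catalytic head together with Atp5b, had 291 and 378 CPM. The genes of the membrane ring subunit c, which encode the same mature protein, were unequal. Atp5g2 had 247 and 537 CPM, the largest log2 ratio of all subunit genes that reached 50 CPM (1.12, 95% interval 1.08 to 1.16). Atp5g1 had 153 and 284 CPM and Atp5g3 191 and 255 CPM. The ratio of Atp5g3 (log2 0.42) lay far below those of the other subunit c genes. Atp5d, a subunit of the central stalk, had 173 and 308 CPM. At the other end, Atp5h, part of the peripheral stalk, had 563 and 628 CPM (log2 ratio 0.16).

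Complex IV summed to 3929 CPM in control and 5830 CPM in Maf LSEC-KO LSECs, a ratio of 1.48. Of its 18 genes, 11 reached 50 CPM, and 10 of these were more than 25% higher, compared with 34.9% of all genes. Cox4i1, the common isoform of subunit 4, had a level of 577 CPM in control and 905 CPM in Maf LSEC-KO LSECs. Cox5a and Cox5b, further nuclear subunits of this complex, had 195 and 304 CPM, and 281 and 404 CPM. The isoforms that most tissues or liver use were alike in direction and unlike in size. Cox6a1 had 305 and 361 CPM, Cox6b1 370 and 506 CPM, Cox7a2 345 and 437 CPM, and Cox8a 417 and 686 CPM. Cox7a2l, which is known as a factor that joins complexes III and IV into supercomplexes, had 270 and 524 CPM and the largest log2 ratio among the genes of complex IV that reached 50 CPM (0.96, 95% interval 0.92 to 0.99).

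Tissue-restricted isoforms of complexes I and IV stayed rare in LSECs. Cox4i2, an isoform of subunit 4 known from lung and from pericytes, had 1 UMI in control and 29 UMIs in Maf LSEC-KO LSECs (log2 ratio 4.63, 95% interval 2.04 to 9.99). These 29 UMIs were spread over cluster 7 with 9 UMIs, cluster 2 with 8 UMIs, and clusters 3 and 8 with 6 UMIs each. Ndufa4l2, a hypoxia-responsive relative of Ndufa4, had 7 and 33 UMIs, and 23 of the 33 lay in cluster 8, which was led by genes of other cell types (below). Cox6b2, an isoform known from testis, had 18 UMIs in control LSECs and 98 in those of Maf LSEC-KO mice. Of the 18, 16 lay in cluster 8, while the 98 were found mainly in cluster 7 with 34 UMIs, cluster 2 with 31 and cluster 3 with 26. The muscle isoforms Cox7a1, Cox8b and Cox6a2 had 14 and 21, 8 and 2, and 0 and 3 UMIs. No UMI of Cox7b2 or Cox8c was counted in LSECs, which gives exact upper limits of 0.107 CPM in control and 0.0919 CPM in Maf LSEC-KO. Ndufa4 itself had 462 and 610 CPM.

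Complex III summed to 1677 CPM in control and 2380 CPM in Maf LSEC-KO LSECs, a ratio of 1.42. Of its 8 genes, 6 were more than 25% higher, compared with 34.9% of all genes. The core proteins Uqcrc1 and Uqcrc2 had 73.0 and 115 CPM, and 109 and 158 CPM. Uqcrfs1, the Rieske iron-sulfur protein, had 57.7 and 91.6 CPM. Uqcrh, the hinge protein, had the largest log2 ratio in this complex (0.81), and Uqcrb the smallest (0.22).

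Complex II, which also works in the citric acid cycle, was the smallest group. It summed to 328 CPM in control and 407 CPM in Maf LSEC-KO LSECs, a ratio of 1.24, the smallest of all complexes. Of its 4 genes, 2 were more than 25% higher, compared with 34.9% of all genes. Sdha, the flavoprotein that oxidizes succinate, had 131 CPM in control and 128 CPM in Maf LSEC-KO LSECs (log2 ratio −0.03, 95% interval −0.09 to 0.02). Its iron-sulfur partner Sdhb had 66.4 and 106 CPM (log2 ratio 0.68). The membrane anchors Sdhc and Sdhd had 77.9 and 91.4 CPM, and 52.6 and 81.7 CPM.

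Complex I, the largest complex, summed to 5858 CPM in control and 7800 CPM in Maf LSEC-KO LSECs, a ratio of 1.33. Of 39 genes, 38 reached 50 CPM, and 27 of these were more than 25% higher, compared with 34.9% of all genes. Genes were assigned to complexes by symbol alone. This places Ndufa4 (462 and 610 CPM) and Ndufa4l2 in this sum and not in that of complex IV. Ndufa4 had the highest level of the genes in this sum, so both sums depend on where it is placed. Ndufa8, an accessory subunit, had the largest log2 ratio of the 38 genes (0.83), with 168 and 299 CPM. Ndufv1, which holds the site of NADH oxidation, had 48.4 and 69.2 CPM. The smallest differences were those of Ndufb10 (156 and 161 CPM), of Ndufs1, the largest core subunit (47.8 and 52.3 CPM), of Ndufa5 (193 and 219 CPM) and of Ndufb4 (194 and 221 CPM). For Ndufb10 the interval of the log2 ratio, −0.01 to 0.10, included 0. Log2 ratios of Atp5h, Ndufa5, Ndufb10 and Ndufs1 fell below 0 under at least 1 of the alternatives tried, and that of Sdha was 0.00 at its highest. The lowest values of these genes came with the UMIs of all genes as the denominator. That denominator lowers all log2 ratios alike, so a change of sign under it is no trait of the single gene. Ndufb1-ps, annotated as a noncoding RNA in GENCODE M21, is taken in by its symbol and had 267 and 339 CPM.

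Of the Ndufaf assembly factors, only Ndufaf2, Ndufaf4 and Ndufaf8 reached 50 CPM in either library, with log2 ratios of 0.51, 0.44 and 0.55. Over all 8, the ratios ran from −0.05 (Ndufaf3) to 0.95 (Ndufaf6).

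Genes around the complexes were counted in lists against the same background of 34.9% of all genes higher and 20.6% lower. Of genes for mitochondrial ribosomal proteins, 49 reached 50 CPM and 46 were more than 25% higher, with 0 lower and a median log2 ratio of 0.65 (Mrps6 1.11, Mrpl52 0.05). Of genes for import, folding and membrane organization of mitochondria, 17 of 18 were higher, led by the chaperonins Hspe1 (163 CPM in control and 491 CPM in Maf LSEC-KO) and Hspd1 (127 and 329 CPM). Of the electron carriers, 3 of 4 were higher, among them Cyc1 (59.7 and 106 CPM) and cytochrome c, Cycs (126 and 201 CPM). Citric acid cycle genes were less uniform, with 6 of 14 higher, from Fh1 (log2 ratio 0.98) to Ogdh (−0.27). Of regulators of mitochondrial transcription only 3 reached 50 CPM, and 1 of these was higher, Tfam (34.9 and 57.3 CPM), which packages mitochondrial DNA. Assembly factors of the other complexes were higher in 6 of 9 and lower in 1, Cox16 (76.4 and 56.6 CPM). Glycolysis genes had the largest median of these lists at 1.07, with 10 of 12 higher, led by Pfkl (40.2 and 130 CPM) and Eno1 (61.7 and 181 CPM), and Ldhb lower (63.1 and 39.1 CPM).

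The promoters of the nuclear subunit genes were searched for letters known from genes of the respiratory chain. RefSeq windows (GRCm38.p6) of 300 bases around the gene start were matched for 68 of the 86 genes. The core of the NRF1 motif (GCGC, any 2 bases, GCGC, on either strand) was found in 19 of them (27.9%), compared with 7.0% of all genes with a window. The ETS-type motif CCGGAAG, which the factor GABP is known to bind, was found in 17 (25%), compared with 9.93% of all genes. A YY1-type motif, AAGATGGC, was found in 9 (13.2%), compared with 3.19%. Among the genes that reached 50 CPM, the median log2 ratio was 0.42 with and 0.49 without the NRF1 letters, 0.45 and 0.52 for the ETS letters, and 0.37 and 0.50 for the YY1 letters. The shares of all genes cover every gene with a window, expressed in LSECs or not, and base composition was not matched. Whether the members differ in these letters from other expressed genes was not tested. A match is a description of the letters and no proof of binding.

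Shown as examples of such letters are the 80 bases before the RefSeq gene start of Sdhd, which holds both the NRF1 and the ETS letters (chr9:50603850-50603929, minus strand), and of Ndufa11, which holds the NRF1 letters (chr17:56717682-56717761, plus strand). GENCODE M21 places both starts some bases further downstream, and capitals mark the motifs. The log2 ratio was 0.64 for Sdhd and 0.20 for Ndufa11.
Sdhd: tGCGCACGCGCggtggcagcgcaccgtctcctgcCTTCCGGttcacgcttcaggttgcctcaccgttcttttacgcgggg
Ndufa11: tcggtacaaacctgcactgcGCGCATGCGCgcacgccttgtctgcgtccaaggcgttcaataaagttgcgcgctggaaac

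Mitochondrial genes were split, with 6 of 13 log2 ratios above 0 and 7 below. In LSECs, 2 of 13 were more than 25% higher and 0 were lower by that factor, beside the 34.9% and 20.6% of all genes given above. Highest was mt-Co3, a core subunit of complex IV, with 7009 CPM in control and 9490 CPM in Maf LSEC-KO LSECs (log2 ratio 0.44). The other core subunits of complex IV had 10586 and 10748 CPM for mt-Co1 and 6238 and 7487 CPM for mt-Co2. For complex V, mt-Atp6 had 9063 and 10981 CPM and mt-Atp8 368 and 323 CPM. The only mitochondrial subunit of complex III, mt-Cytb, had 4329 and 5303 CPM.

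Among mitochondrial subunits of complex I, 6 of 7 had a log2 ratio below 0. The lowest was mt-Nd2 with 3866 and 3172 CPM (log2 ratio −0.29), followed by mt-Nd4l (549 and 489 CPM), mt-Nd4 (3884 and 3534 CPM), mt-Nd1 (3268 and 3050 CPM), mt-Nd3 (954 and 903 CPM) and mt-Nd5 (708 and 698 CPM). The exception was mt-Nd6, the gene on the opposite strand, with 126 and 164 CPM. It overlaps mt-Nd5 on the other strand, and how well its mRNA is captured by this method was not tested. Nuclear subunits of complex I were higher in the same cells. Log2 ratios of mt-Co1, mt-Nd1, mt-Nd3 and mt-Nd5 changed sign under at least 1 alternative, whereas mt-Co3 stayed between 0.25 and 0.60 and mt-Nd2 between −0.47 and −0.13. The lowest value of mt-Co1 came with the UMIs of all genes as the denominator, which lowers all log2 ratios alike. Genes mt-Atp8 and mt-Atp6 overlap, as do mt-Nd4l and mt-Nd4, so reads in the shared bases cannot be assigned with certainty. The counts of genes above and below 0 take each gene of these pairs by itself, although the genes of a pair may not be measured separately.

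**Figure D2:**
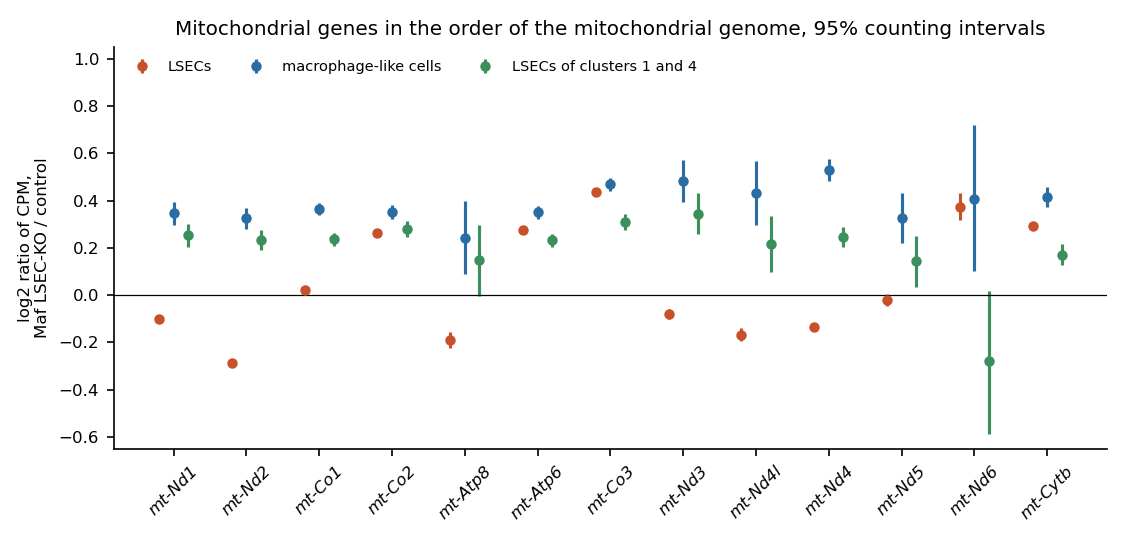
Log2 ratio of the level (CPM) in the Maf LSEC-KO to the control library for the 13 mitochondrial genes, in their order along the genome, with 95% counting intervals, in LSECs, in macrophage-like cells and in LSECs of clusters 1 and 4. In LSECs the ratios run from −0.29 for mt-Nd2 to 0.44 for mt-Co3, while in macrophage-like cells all 13 lie above 0.

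Within LSECs, levels were compared between clusters that had been built without the members, mitochondrial genes and ribosomal protein genes. Clusters 1 and 4 held most control LSECs (2529 cells) and 104 Maf LSEC-KO LSECs, and clusters 2 and 3 held 1336 and 1065 Maf LSEC-KO LSECs. Cluster 2 was led by Ly6c1 and by genes known to respond to interferon (Zbp1, Irf7, Isg15), cluster 3 by Astn1, Kcne3 and Esm1, and cluster 7 by cycling genes. Cluster 8 was led by genes of stellate, lymphatic and cholangiocyte type.

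In clusters 1 and 4, Maf LSEC-KO LSECs had nearly the nuclear level of control LSECs. The summed nuclear level there was 15946 CPM in control and 15367 CPM in Maf LSEC-KO LSECs (log2 ratio −0.05, 95% interval −0.08 to −0.03). Of 75 nuclear subunit genes that reached 50 CPM, 0 were more than 25% higher and 4 were lower, compared with 13.3% and 7.3% of all genes. Maf was still counted in these Maf LSEC-KO LSECs, with 2547 CPM beside 3595 CPM in the control cells of the same clusters. Their ribosomal protein share was 8.25%, beside 7.41% in control. Atp5b had 318 CPM in control and 278 CPM in Maf LSEC-KO LSECs of these clusters, and Atp5g2 had 237 and 263 CPM. The mitochondrial genes, by contrast, were higher together, with a log2 ratio of their sum of 0.25 and only mt-Nd6 below 0. For mt-Nd6 this rests on 2784 UMIs in control and 95 UMIs in Maf LSEC-KO LSECs of these clusters.

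Clusters 2 and 3, both nearly without Maf (23.8 and 37.3 CPM), differed from each other in opposite directions for the 2 genomes. The summed nuclear level was 25523 CPM in cluster 2 and 19879 CPM in cluster 3, and 55 of 78 nuclear subunit genes were more than 25% higher in cluster 2, compared with 16.2% of all genes. All 78 log2 ratios lay above 0, from 0.08 for Sdha to 0.64 for Ndufa8. The summed mitochondrial level was 49206 CPM in cluster 2 and 67808 CPM in cluster 3, with log2 ratios of cluster 2 over cluster 3 from −0.31 for mt-Co1 to −0.71 for mt-Nd4l. The median depth was 15027 UMIs in cluster 2 and 11965 UMIs in cluster 3. Nuclear-retained RNAs made up 1.85% and 2.83% of UMIs, ribosomal protein genes 20.3% and 17.3%, and the upper quartile of the mitochondrial share per cell was 4.35% and 8.37%. The part of depth and RNA quality in this difference was not tested.

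Clusters 5 and 6, with the fewest UMIs per cell, marked the extremes of the nuclear level among the control groups drawn. Cluster 5 had 13689 CPM of nuclear and 83801 CPM of mitochondrial genes, at a median of 4818 UMIs, with nuclear-retained RNAs at 4.62% of UMIs. Hemoglobin genes were among its leading genes. Cluster 6 had 23998 CPM of nuclear and 64048 CPM of mitochondrial genes at a median of 3378 UMIs, with nuclear-retained RNAs at 0.29% of UMIs beside 2.26% over all control LSECs, and with hepatocyte and hemoglobin genes among its leading genes. Without these clusters the median log2 ratio of the nuclear subunit genes was 0.49 and that of the mitochondrial sum 0.30.

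**Figure D3:**
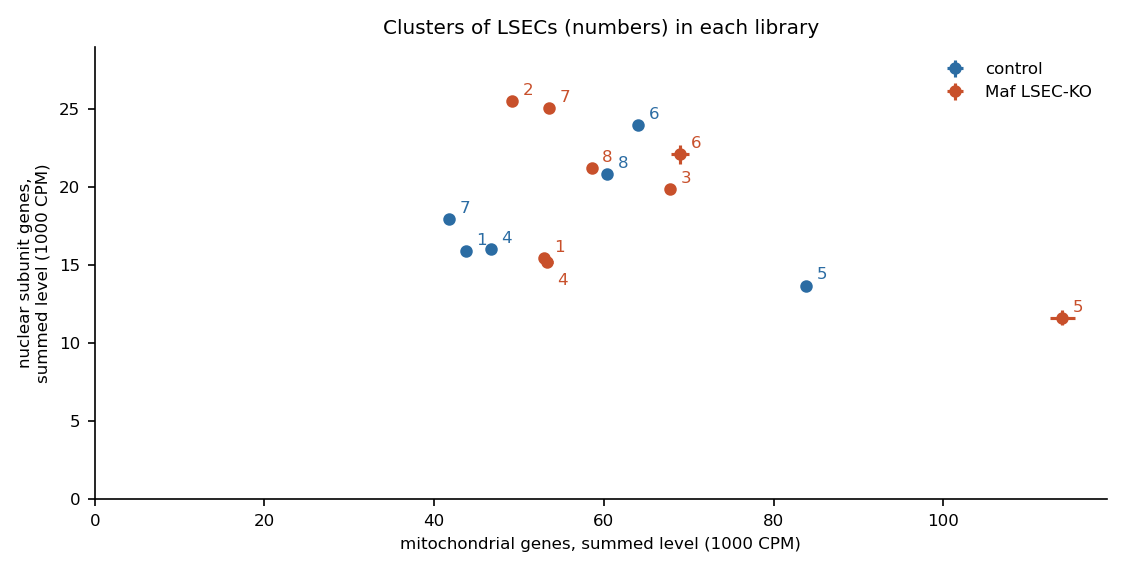
Summed level of the nuclear subunit genes against that of the 13 mitochondrial genes (axes in units of 1000 CPM) for each LSEC cluster with at least 30 cells in a library, with 95% counting intervals. Maf LSEC-KO LSECs of clusters 1 and 4 lie at the nuclear level of control, 15476 and 15223 CPM, while clusters 2 and 7 lie highest in this library.

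LSECs were also divided by their Maf UMIs, without use of clusters. In the Maf LSEC-KO library, the summed nuclear level was 23746 CPM in the 2557 LSECs with 0 Maf UMIs, 20282 CPM in the 347 LSECs with at least 2 Maf UMIs and 17106 CPM in the 212 of these with at least 5. Of 78 nuclear subunit genes, 13 were lower by that factor in LSECs with at least 2 Maf UMIs than in those with 0, and 0 were higher, compared with 10.5% and 11.9% of all genes. With at least 5 Maf UMIs, 60 of 78 were lower and 0 were higher, compared with 28.3% and 22.8% of all genes. Sdha had 127 CPM in LSECs with 0 and 131 CPM in LSECs with at least 5 Maf UMIs. The mitochondrial sum was 56326 CPM with 0 and 59119 CPM with at least 5 Maf UMIs. Ribosomal protein genes moved in parallel with the nuclear subunit genes, at 19.0%, 15.2% and 10.9% of UMIs with 0, at least 2 and at least 5 Maf UMIs, and the median depth was 13609, 11543 and 10151 UMIs. In the control library the summed nuclear level was 28562 CPM in the 45 LSECs with 0 Maf UMIs, and 16155 CPM in the 3837 with at least 5. Those 45 cells had a median depth of 3485 UMIs, hepatocyte markers at 6227 CPM beside 263 CPM in the cells with at least 5 Maf UMIs, and a ribosomal protein share of 16.8% beside 7.55%. The part of these in the higher level was not tested.

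Single cells overlapped broadly. The median LSEC had a nuclear level of 16250 CPM in control, with quartiles of 13316 and 19842 CPM. In the Maf LSEC-KO library it was 22919 CPM in cells with 0 Maf UMIs and 18317 CPM in cells with at least 2. The median LSEC held 119 nuclear subunit UMIs and 364 mitochondrial UMIs in control, and 237 and 588 in Maf LSEC-KO.

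**Figure D4:**
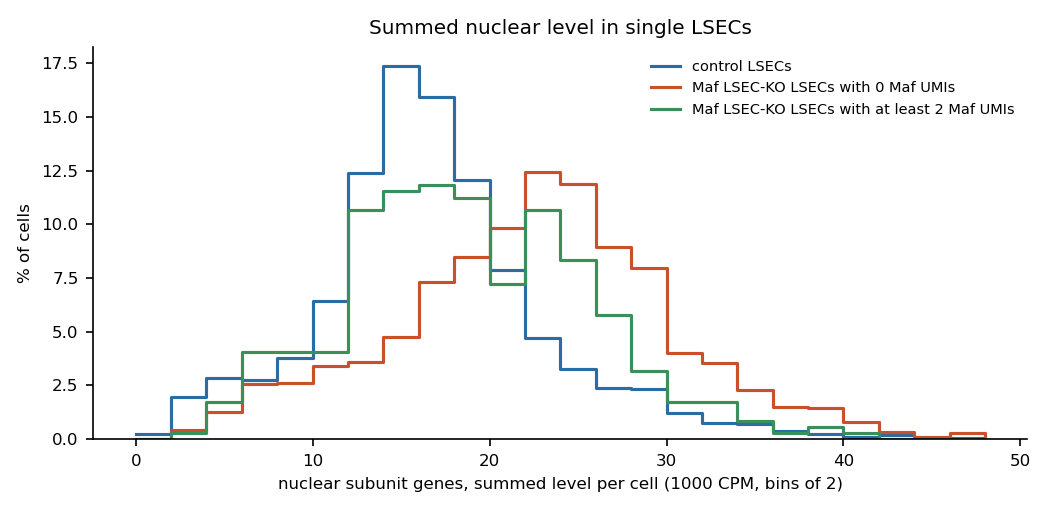
Distribution of the summed level of the nuclear subunit genes per cell (axis in units of 1000 CPM) as a percentage of cells, for control LSECs and for Maf LSEC-KO LSECs with 0 or at least 2 Maf UMIs. The medians are 16250, 22919 and 18317 CPM, and the distributions overlap.

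Cycling LSECs, taken as cells with UMIs of at least 3 of 14 cycling genes, had a somewhat higher nuclear and a lower mitochondrial sum than the other LSECs of their own library. The summed nuclear level was 17861 CPM in the 97 cycling and 16369 CPM in the other control LSECs. In Maf LSEC-KO it was 24786 CPM in the 787 cycling and 22510 CPM in the other LSECs. The mitochondrial sum was 44130 CPM in cycling and 51225 CPM in other control LSECs (log2 ratio −0.22), and 54466 and 57420 CPM in Maf LSEC-KO (log2 ratio −0.08). The median log2 ratio of the nuclear subunit genes was 0.09 in control, beside 0.05 over all genes, and 0.12 in Maf LSEC-KO, beside −0.01. Cycling LSECs were deeper, with a median of 14618 UMIs beside 8358 in control and 22368 beside 12267 in Maf LSEC-KO, and the part of depth was not tested. Without the cycling cells the median log2 ratio between the libraries was 0.45.

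Position along the sinusoid made little difference to the nuclear sum in control LSECs. Among control LSECs with at least 5000 UMIs, divided into quartiles by a score of central and portal landmark genes, the summed nuclear level was 16457 CPM in the pericentral and 16559 CPM in the periportal quartile. The mitochondrial sum was 44643 and 48296 CPM. Without the depth limit the nuclear sum was 16697 and 16562 CPM and the mitochondrial sum 47752 and 56847 CPM, at a median depth of 8624 and 6018 UMIs. Hepatocyte markers were at 131 CPM in the pericentral and 636 CPM in the periportal quartile with the limit. Without it they were at 148 and 716 CPM, and their part in the mitochondrial difference was not tested. Ndufa8 stood out. Its level was 265 CPM in the pericentral quartile, 175 and 123 CPM in the quartiles between, and 114 CPM in the periportal quartile, from 1984, 1504, 987 and 814 UMIs (periportal to pericentral log2 ratio −1.22, 95% interval −1.34 to −1.10). Over all depths it was 262, 173, 117 and 118 CPM. Log2 ratios of the other nuclear subunit genes that reached 50 CPM ran from −0.19 for Ndufv1 to 0.22 for Ndufb2. Ndufa8 was singled out after its values had been seen.

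Other cell types of the same 2 libraries were compared in the same way. Vwf+ endothelial cells, which were left out of the LSECs, had a summed nuclear level of 18139 CPM in the 162 control and 21658 CPM in the 1183 Maf LSEC-KO cells. Since a Vwf UMI set these cells apart, and far more cells had one in Maf LSEC-KO, the class may differ in make-up between the libraries. Of 78 nuclear subunit genes, 23 were more than 25% higher there and 0 were lower, compared with 27.8% and 16.8% of all genes, so their count of higher genes lay near the background. Their median log2 ratio was 0.24, beside 0.08 over all genes, and 72 of 78 ratios lay above 0. Atp5g2 was again the highest (log2 ratio 0.74). Maf was at 1850 CPM in control and 29.3 CPM in Maf LSEC-KO Vwf+ cells.

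In macrophage-like cells the nuclear subunit genes were not higher. Their summed level was 18094 CPM (95% interval 17880 to 18309) in the 219 control cells and 16002 CPM (95% interval 15839 to 16166) in the 389 Maf LSEC-KO cells. Of 77 genes, 0 were more than 25% higher and 12 were lower, compared with 21.9% and 20.5% of all genes. The mitochondrial sum was higher at 81694 beside 62330 CPM, and 12 of 13 mitochondrial genes were more than 25% higher. Maf was at 1507 and 1511 CPM in this class, and the ribosomal protein share was 9.91% and 9.72%. The part of RNA from LSECs in these values was not tested. Hepatocyte markers were at 647 CPM in control and 1174 CPM in Maf LSEC-KO macrophage-like cells, and their part in the mitochondrial difference was not tested. Cox6a2, an isoform of striated muscle and 1 of the 12, was counted with 89 UMIs in control and 6 UMIs in Maf LSEC-KO macrophage-like cells, while an unnamed Maf LSEC-KO cluster of 70 cells, led by Cd209a and class II genes and with the dendritic cell markers Siglech, Cd209a, Itgax and Naaa among its 50 leading genes, held 39.

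Neutrophil/monocyte-like cells had the lowest nuclear level of all classes, 9152 CPM in the 40 control and 8161 CPM in the 86 Maf LSEC-KO cells. The median log2 ratio of the members there was −0.17, beside −0.15 over all genes, so the members did not stand apart from the background of this class. B cell-like cells had 17939 and 22809 CPM, from 47 and 38 cells, with a ribosomal protein share of 16.2% and 28.6%. Maf, which is high in control LSECs, was counted at 2324 CPM in control and 22 CPM in Maf LSEC-KO B cell-like cells. In neutrophil/monocyte-like cells it was at 461 CPM in control and 13.1 CPM in Maf LSEC-KO. The part of RNA from LSECs in both classes was not tested. T/NK cell-like cells (24179 CPM, 62 cells) and cholangiocyte-like cells (30454 CPM, 37 cells, the highest level of all classes) were named in the Maf LSEC-KO library only.

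**Figure D5:**
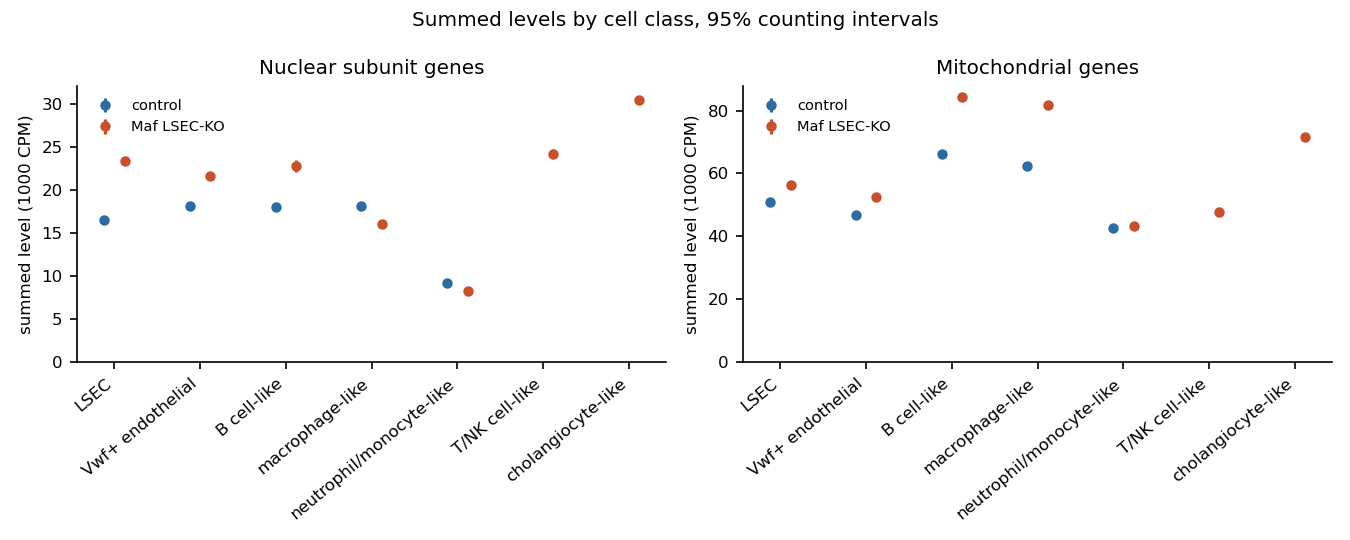
Summed level of the nuclear subunit genes (left) and the mitochondrial genes (right) (axes in units of 1000 CPM) for each cell class with at least 30 cells, with 95% counting intervals. The nuclear level is higher in Maf LSEC-KO for LSECs, Vwf+ endothelial and B cell-like cells, and lower for macrophage-like and neutrophil/monocyte-like cells.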

How the data were processed

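The authors aligned reads of kit v3.1 libraries to mm10 and counted UMIs with Cell Ranger 6.0.2 (per the submitters' processing notes, which also name Seurat 5.0.1). The deposited values are UMI counts per gene and barcode, without normalization. A barcode needed 1500 UMIs and 750 genes to be kept. Doublets were scored with Scrublet (scanpy 1.11.5), whose automatic limit marked 0 cells, so 225 control and 308 Maf LSEC-KO cells with the highest scores were removed. Libraries were clustered with Seurat 5.3.0 in R 4.3.3 (16 and 20 principal components, resolution 0.3), and merged LSECs with sctransform 0.4.2 (3000 variable genes, 22 components). Clustering used neither members nor other mitochondrial and ribosomal protein genes. Endothelial-like clusters had UMIs of Pecam1 and of at least 7 endothelial marker genes in at least 50% of cells, and cells with a Vwf UMI were set apart. Endothelial-like clusters also held no barred gene of other cell types (such as Ptprc and Clec4f) in over 50% of cells. Other classes needed at least 3 markers, and more than any other class, among the 50 leading genes, with no other class ahead among the first 10, where the unnamed cluster had more monocyte than dendritic cell markers. A cluster far shallower than its library, with no such marker among the first 10, stayed unnamed. UMIs were summed over cells and scaled to CPM outside mitochondrial and ribosomal protein genes, with a floor of 50 CPM in either library. Ratios have exact 95% intervals. Positions are from GENCODE M21, which matched all 107 identifiers. Of these, 19 overlap a gene on the same strand, where reads may be shared.

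Named were all mitochondrial genes, the 6 largest and 6 smallest ratios, core subunits together with Cox5a and Cox5b, and isoform families. Members and lists were chosen with earlier results of these data known. Alternatives covered the denominator, TMM (edgeR 4.0.16), the floor, depth, doublets and cell filters. The ratio code was tested on simulated data. The values of 1 member, which enters all counts and sums, are not reported here.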

Additional observations from a re-analysis of the deposited data

Results flagged for a closer look

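The log2 ratio of the summed nuclear subunit genes between Maf LSEC-KO and control was 0.51 in LSECs. It was −0.18 in macrophage-like cells and −0.17 in neutrophil/monocyte-like cells, opposite in sign to LSECs. In Vwf+ endothelial cells it was 0.26 and in B cell-like cells 0.35, the same sign as in LSECs. In neutrophil/monocyte-like cells the median log2 ratio of all genes was −0.15, close to the −0.17 of the members, while in macrophage-like cells it was 0.02. With 1 library per condition the difference between the classes was not tested.

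Barcodes under the minimum of 1500 UMIs, which entered no comparison, had a summed nuclear level of 22291 CPM in the Maf LSEC-KO library, above the 16990 CPM of such barcodes in control. Their mitochondrial genes made up 16.8% of UMIs in Maf LSEC-KO and 29.4% in control.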

How the results depend on the processing

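The median log2 ratio of the nuclear subunit genes was 0.48, the number more than 25% higher 61 and the log2 ratio of the mitochondrial sum 0.15. In this order they were 0.30, 37 and −0.042 with the UMIs of all genes as denominator, 0.49, 61 and 0.16 with members left out of it, 0.37, 43 and 0.038 with TMM, 0.39, 43 and 0.041 with the median of ratios, and 0.39, 46 and 0.19 with the mean over cells. They were 0.49, 62 and 0.20 for LSECs with at least 5000 UMIs, 0.39, 51 and 0.24 after thinning to 2700 UMIs (427 control and 187 Maf LSEC-KO LSECs were shallower and left out), 0.48, 60 and 0.13 with 1 to 10% mitochondrial UMIs, 0.45, 56 and 0.16 without cycling cells, 0.44, 55 and 0.12 with Vwf+ cells, 0.48, 60 and 0.14 with doublets, and 0.51, 63 and 0.14 without Maf LSEC-KO LSECs that had a Maf UMI. Without a floor the median was 0.49 and the count 65, and with a floor of 10 CPM they were 0.48 and 61. The share of all genes more than 25% higher (34.9%) belongs to the main setting. Counts under the alternatives are given without such a share and were not read against a background. Added after seeing the data were leaving out LSECs with UMIs of at least 5 markers of another class (0.50, 63 and 0.15) and the clusters with few UMIs (0.49, 63 and 0.30). Within the Maf LSEC-KO library the median for LSECs with 2 or more Maf UMIs over those without was −0.23, and −0.49 with at least 5. The median of the nuclear genes between Maf LSEC-KO and control was above 0 in all the settings that compare the libraries. Of 45 named genes with at least 10 UMIs in each library, 36 kept their sign. Some changes of sign among the others came with a denominator that moves all genes alike. No paired analysis was possible because each condition has 1 library.

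Without replicates, no difference was separated from variation between mice or preparations. Levels are shares of captured mRNA, so a change in total RNA per cell was not measured. Neutrophil/monocyte-like and B cell-like cells were few, and their single genes had wide intervals.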
